A study of Mus musculus with 35 samples.

Results

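Single mouse bone marrow stem cells of the side population were compared with pools of 10 such cells, to find which transcripts of the pools were seen in all, in some or in none of the individual cells. Side population (SP) cells are marrow cells that pump out the dye Hoechst, a property of hematopoietic stem cells, and they were sorted here as Sca-1+ Gr-1- cells from C57Bl/6 mice. The comparison takes 18 of the 26 samples, 12 single cells (A to L) and 6 pools, chosen by their labels alone. The single cells came from the tip of the SP tail and had 1 array each. Of the pools, 3 (A, B and M) came from the lower part of the tail (LSP) and 3 (N, O and Z) from its upper part (USP), and each is 4 amplifications of 10 cells mixed and put on 2 arrays, which were averaged. The labels say male for the single cells and the LSP pools and give no sex for the USP pools; the methods give CD45.1 mice of 7 to 9 weeks and the marrow of 1 mouse per experiment. The cells are therefore no sample of mice, and the p-values measure only the spread between these cells and pools. As a side measure, 5 single-cell-equivalents (SCE) (aliquots of 1 lysate of 40 SP tip cells, each holding about the RNA of 1 cell) show how far such amounts of the same RNA differ. No treatment or engineered allele is named for either group.

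A hematopoietic stem cell rests for long periods and can give rise to every blood lineage. It holds a network of transcription factors, among them Lmo2, Tal1, Lyl1 and Myb, and surface proteins such as Tie1. It also uses genes common to most cells, for ribosomes and energy supply. A single cell holds few copies of most messenger RNAs, and the polymerase chain reaction used here, a global amplification of the 3′ ends of cDNA, has to start from those copies.

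Levels were log2 intensities of Affymetrix MG-U74Av2 arrays, with levels under log2 7 set to that floor. A probe set was called seen in a sample at a log2 level of at least 9 (an intensity of 512). Of 12422 probe sets, 800 were seen in all 6 pools, which is 6.44%, and these are called pool probe sets. Of the 800, 156 were seen in all 12 cells (19.5%), 636 in 1 to 11 cells (79.5%) and 8 in no cell (1%). The pools had a median of 2124.5 probe sets seen, with a range of 1734 to 2294, and the cells a median of 1293.5, with a range of 1194 to 1489. The highest cell (K) lay below the lowest pool (USP Z). The difference, cells minus pools, was -766.5 probe sets on average (1300 ± 81.8, SD, n = 12, against 2067 ± 213, SD, n = 6; exact permutation test, two-sided, p = 5.39e-05, the smallest p this design can give). Quantile normalization, which gives every array the same distribution, removes this difference by construction. The 5 SCE had 1351 to 1563.

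Of the 24 arrays, 9 pool arrays hold negative intensities (24.6% to 32.1% of their values), while 3 pool arrays and all 12 cell arrays hold positive values alone. The 9 had 1904 to 2321 probe sets seen, the 3 had 1737 to 1889, and the cells 1194 to 1489. The number of cells, the gate within the tail, the experiment and partly the kind of values go together with the groups and cannot be told apart. Fewer cells with a transcript and less RNA per cell cannot be told apart in the pools either.

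**Figure D1:**
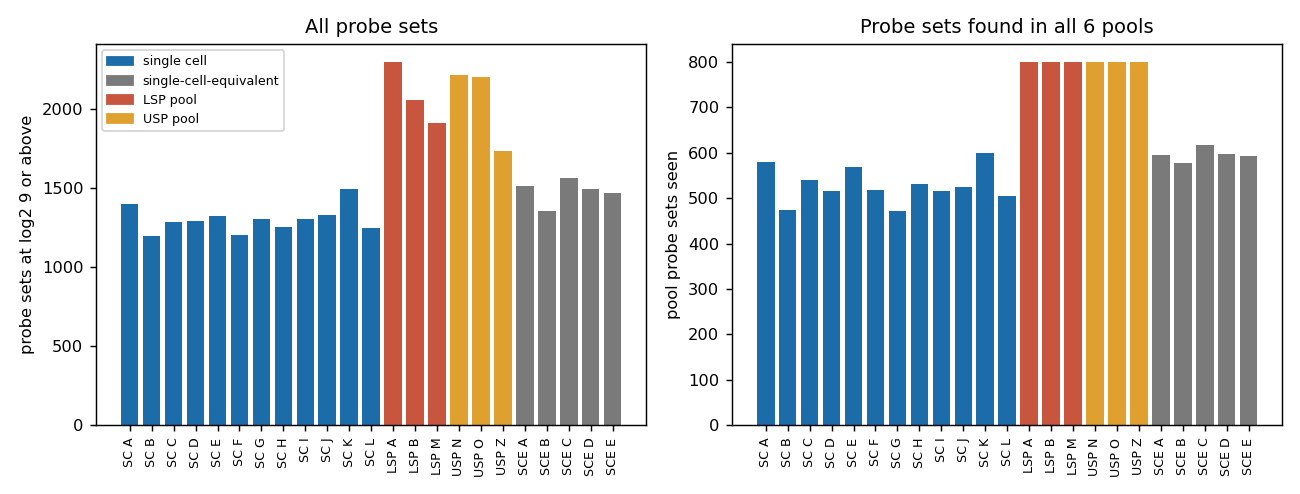
Number of probe sets at a log2 level of 9 or above in each sample (left) and number of the 800 pool probe sets among them (right), for 12 single cells (blue), 3 LSP and 3 USP pools (red and yellow) and 5 SCE (grey). Each bar is 1 sample; the pools are at 800 on the right by definition, and the cells lie between 471 and 600.

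A single cell saw 58.9% to 75% of the pool probe sets (median 65.1%). Cell K saw the most (600), and cells G (471) and B (474) the fewest. The SCE saw 577 to 618, and cells A and K alone reached this range, with 579 and 600. Cell G also had the most probe sets seen in that cell and in no other cell or pool, 130, where the other 11 cells had 33 to 64. Over the 800 probe sets, 2 pools correlated with Pearson's r = 0.50 to 0.75 (median 0.59, 15 pairs), 2 SCE with 0.45 to 0.56 (median 0.49, 10 pairs) and 2 cells with 0.31 to 0.45 (median 0.38, 66 pairs). A cell and a pool correlated with 0.16 to 0.41 (median 0.29, 72 pairs). The mean of the 12 cells correlated with the mean of the 6 pools with r = 0.55, and with r = 0.66 when the intensities of the cells were averaged before the log. These are correlations across probe sets, which share arrays and are not independent. All 800 were chosen as seen in every pool, a condition that the cells and SCE did not have to meet.

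The number of cells that saw a pool probe set was spread over the whole range. The median was 8 cells: 68 probe sets were seen in 1 to 3 cells, 362 in 4 to 8 and 206 in 9 to 11. Of the 800, 348 were seen in all 5 SCE. These were 145 of the 156 probe sets seen in all 12 cells, 203 of the 636 seen in some and 0 of the 8 seen in none. Of the 348, 14 were seen in fewer than 6 of the 12 cells. Of the 9600 levels of pool probe sets in cells, 66.1% were at or above it, 18.4% were at the floor, and 4.19% lay within 0.25 of it. Among the pool probe sets, 97 had their lowest pool within 0.25 above the level, and 80 of the 369 seen in 5 of 6 pools had the missing pool within 0.25 below it.

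**Figure D2:**
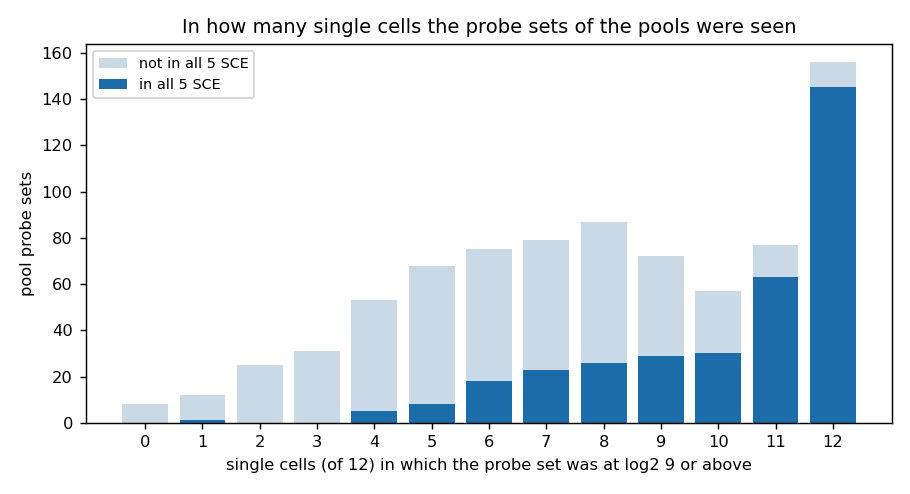
Number of pool probe sets (vertical axis) by the number of single cells, of 12, in which each was seen (horizontal axis), with those also seen in all 5 SCE in dark blue. The tallest bar is at 12 cells (156 probe sets, 145 of them in all SCE), and 8 stand at 0 cells.

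Where more than 1 cell saw a transcript, those cells had it at a higher median level than the pools. For the probe sets seen in 2 to 10 cells, the median of the mean level in the seeing cells ran from 11.01 to 11.36 on the log2 scale, while the median pool level ran from 10.46 to 10.76. For those seen in 1 cell it was 10.12 against 10.41 in the pools. Seen levels are at least 9 by definition, so this is a description. With the intensities of all 12 cells averaged before the log, the median over the 636 probe sets seen in some cells was 10.79, against 10.70 in the pools. For the 156 probe sets seen in all cells it was 12.45 against 11.17.

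**Figure D3:**
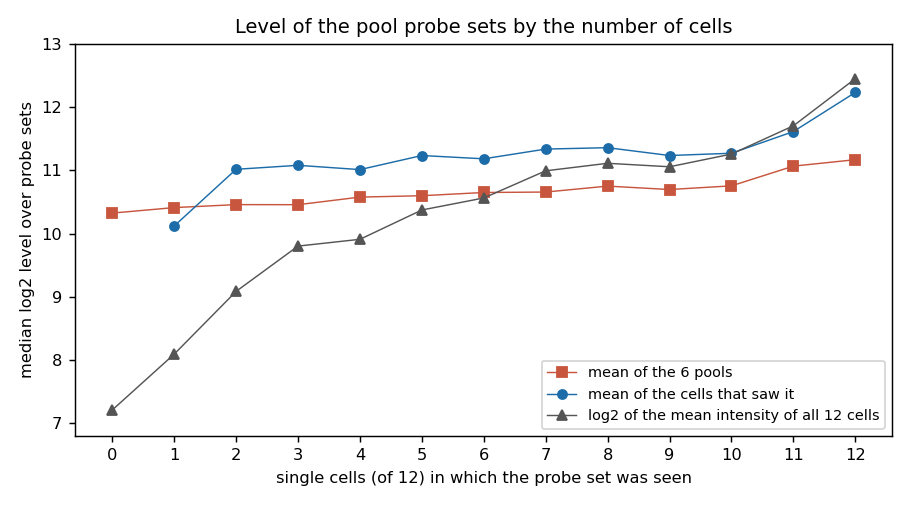
Median log2 level of the 800 pool probe sets (vertical axis) by the number of cells, of 12, that saw them (horizontal axis): mean of the 6 pools (squares), mean of the cells that saw them (circles) and log2 of the mean intensity of all 12 cells (triangles). The squares rise from 10.32 at 0 cells to 11.17 at 12, the triangles from 7.21 to 12.45.

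The spread between cells was larger than between pools or SCE for most pool probe sets. The median SD over the 800 was 1.72 (log2) over the 12 cells, 1.10 over the 5 SCE and 0.52 over the 6 pools, and for 742 probe sets (92.8%) the SD of the cells was above that of the pools. For the probe sets seen in all cells the medians were 0.60, 0.46 and 0.46. For those seen in some cells they were 1.88, 1.30 and 0.54. The pools are mixtures of 4 amplifications and averages of 2 arrays, and the cells are neither.

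Levels were tested for a difference between cells and pools with limma (1 mean each for cells, LSP and USP; cells against the mean of LSP and USP), over the 10307 probe sets above the floor in at least 1 sample. At a Benjamini-Hochberg adjusted p under 0.05, 280 were higher in the cells (2.72% of those tested) and 326 in the pools (3.16%). Of the 280, 183 were among the 6388 tested probe sets seen in no pool, against 25 of the 326. Such probe sets can enter the test through the cells alone, so the 183 are a description. The median intensity was 43.2 to 86.85 on the cell arrays and 15.9 to 54.1 on the pool arrays. Its part in these calls was not tested. The cells vary more than the pools for most pool probe sets, and limma's single variance does not model this. Its adjusted p-values tend to be too large where the 12 cells vary more. They tend to be too small where the 6 pools vary more, as in the class seen in no cell (median SD 0.29 over the cells and 0.69 over the pools). With weights for the 2 kinds of sample, the counts were 434 and 363. The split moved with the scaling and the floor: 686 and 413 with a floor of log2 6, 141 and 264 with one of log2 8, 381 and 205 after quantile normalization, and 70 and 515 when the pools were limited to the 3 arrays with positive values alone, which come from 2 pools (LSP B and USP Z), 1 of each kind. At an unadjusted p under 0.05 the counts were 676 and 1054. Of the 280 probe sets higher in the cells, 119 have identifiers with a suffix (such as _f_at or _r_at) that marks probes open to cross-hybridization, against 58 of the 326 higher in the pools. Among all probe sets 22.6% have such identifiers.

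**Figure D4:**
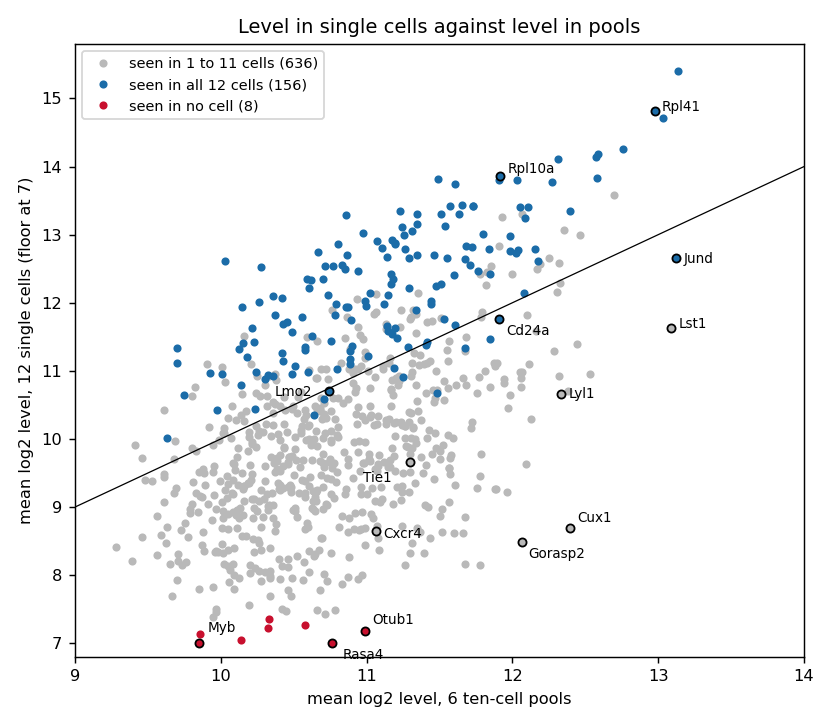
Mean log2 level in 12 single cells (vertical axis, floor at 7) against mean log2 level in 6 pools (horizontal axis) for the 800 pool probe sets, coloured by whether all, some or none of the cells saw them; the line marks equal levels and circled points are named. Cd24a and Lmo2 lie near the line, Rpl41 above it, and Rasa4, Otub1 and Myb at or near the floor of the cells.

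Of the 3 genes that mark these cells, Lmo2 and Cd24a were seen in every cell and every pool. For Lmo2, an adaptor of blood transcription factor complexes, the levels of one probe set were 10.24, 10.74 and 11.34 in LSP A, B and M and 10.16, 10.41 and 11.54 in USP N, O and Z. In the cells they ran from 9.83 to 11.44 (median 10.88), so the groups overlapped over nearly their whole range. The difference was -0.03 ± 0.27 (SE; limma, adjusted p = 0.95). The other Lmo2 probe set was seen in 3 of 6 pools and 5 of 12 cells and does not give the same picture.

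Cd24a, a small surface glycoprotein of many blood cells, had levels of 11.73, 11.72 and 12.64 in LSP A, B and M and of 12.15, 11.56 and 11.66 in USP N, O and Z. The cells ran from 11.15 to 12.51 (median 11.79), with an SD of 0.43, close to the 0.41 of the pools, and again the groups overlapped. The difference was -0.15 ± 0.21 (SE; limma, adjusted p = 0.73).

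Tie1, an orphan receptor tyrosine kinase shared by endothelial and stem cells, was seen in all pools and in 7 of 12 cells (by a probe set with a suffixed identifier). Its levels were 10.41, 11.42 and 11.35 in LSP A, B and M, 11.58, 11.07 and 11.93 in USP N, O and Z, and 10.76 to 12.16 in the 5 SCE. The cells ran from 7.0 to 12.44 (median 9.32). Of the 12 cells, 2 were at the floor and the highest 3 were above every pool. The difference of -1.63 ± 0.87 (SE) did not pass the test (limma, adjusted p = 0.38). A further Tie1 probe set was seen in 2 pools and 1 cell.

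The other surface proteins of stem cells differed in how many cells saw them. The list of such proteins, receptors and efflux pumps had 24 probe sets of 18 genes, of which 7 were seen in all pools: 1 in all cells (Cd24a), 6 in some and 0 in none. Abcg2, the transporter that pumps out the Hoechst dye, had 9.70, 10.13 and 11.24 in LSP A, B and M and 9.59, 10.10 and 11.67 in USP N, O and Z. In the cells it divided sharply, with 5 cells at the floor and 7 cells between 10.08 and 12.33. In the SCE it ran from 7.0 to 11.39 and was seen in 3 of 5. Cxcr4, the receptor that holds stem cells in the marrow, was at 10.50 to 12.08 in the pools and at 9.51 to 10.77 in the SCE, and was seen in 5 of 12 cells, with 5 at the floor. Its difference of -2.41 ± 0.75 (SE) did not pass the test (limma, adjusted p = 0.078).

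Adgrg1, an adhesion receptor found on stem cells, was seen in 11 of 12 cells, with 1 cell at 7.64 and the other 11 at 9.41 or above. F11r, a junction protein, was seen in 8 cells, and Emcn, a sialomucin, in 6, of which the lowest was at 10.09 and the highest at 12.99. Eng, a co-receptor for transforming growth factor beta, went the other way: it was seen in 4 of 6 pools (8.57 to 10.77) but in 11 of 12 cells, with a median of 12.63. Its difference of 2.36 ± 1.03 (SE) did not pass the test (limma, adjusted p = 0.25). Kit, the stem cell factor receptor, was not seen in any cell or pool, with a highest level of 7.14. The study detected its transcript by real-time polymerase chain reaction in a part of its single stem cells and states that SP cells carry the protein. Not being seen here is therefore no proof of absence.

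In this list 1 probe set was higher in the cells and 2 in the pools, with a median difference of -0.37 over the 23 tested, against 0.03 over all probe sets tested, of which 2.72% and 3.16% were called. The 2 higher in the pools were Cd9, a tetraspanin (-1.32), and a probe set of Flt3, a receptor of early progenitors (-1.68, identifier ending in _s_at). The 1 higher in the cells was the other Flt3 probe set (1.44, ending in _r_at), so the 2 Flt3 probe sets disagree. The calls of Cd9 and of the Flt3 probe set higher in the cells were lost without single samples, with adjusted p up to 0.0915 (without LSP B) and 0.0768 (without USP N) in limma, and the call of the other Flt3 probe set was lost against the LSP pools alone.

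**Figure D5:**
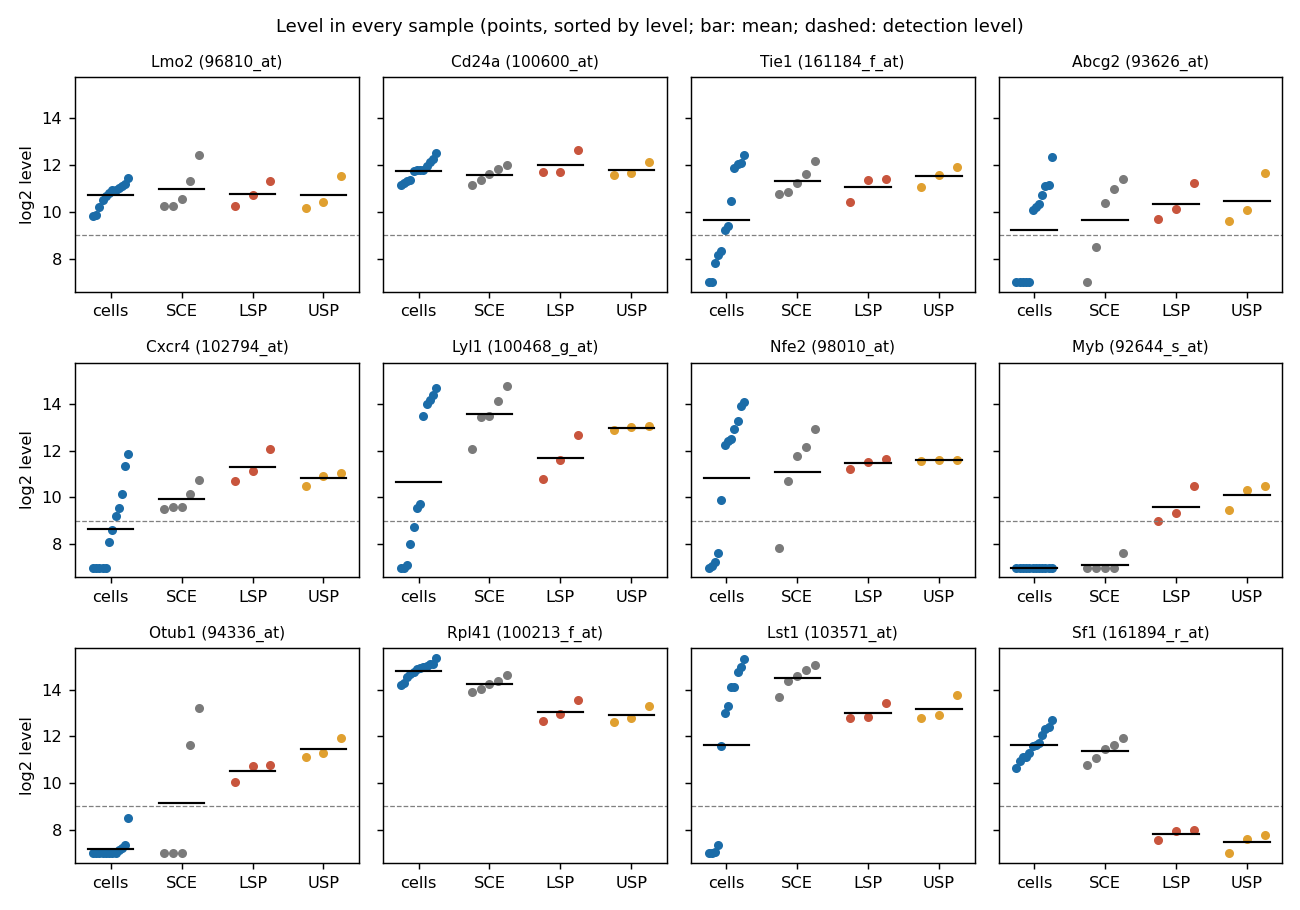
Log2 level (vertical axis) of 12 probe sets in each of 12 single cells, 5 SCE, 3 LSP and 3 USP pools; each point is a sample, sorted by level within its group, bars are means and the dashed line is the detection level of 9. Lmo2, Cd24a and Rpl41 are seen in every cell, Abcg2, Lyl1, Nfe2 and Lst1 are at or near the floor in some cells and above the pools in others, and Myb is at the floor in every cell.

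The list of transcription factors of stem and progenitor cells had 27 probe sets of 19 genes, of which 5 were seen in all pools. They fell into every class: Lmo2 was seen in all cells, Lyl1, Nfe2 and Cbfb in some, and Myb in none. Lyl1, a helix-loop-helix factor, had in one of its 2 probe sets 12.66, 10.81 and 11.61 in LSP A, B and M, 12.89 to 13.05 in the 3 USP pools, and 12.07 to 14.79 in the SCE. It was seen in 7 of 12 cells, and the cells ran from 7.0 to 14.70 (SD 3.22). Its highest cell was above every pool and 2 cells were at the floor.

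Nfe2, a factor of the megakaryocyte and erythroid program, was nearly constant in the pools (11.23 to 11.66, SD 0.15). In the cells it had an SD of 2.87: 8 cells saw it, at 9.89 to 14.09, and the other 4 were at 7.63 or below. Cbfb, the partner of the Runx factors, was at 11.81 to 12.65 in the pools. It was seen in 8 cells, all at 11.83 or above, while the highest of the other 4 was at 8.12. Meis1, a homeobox factor of stem cells, was seen in 5 of 6 pools and 5 of 12 cells, and the 7 other cells were at the floor. Tal1, a helix-loop-helix factor, was seen in 4 pools and 3 cells.

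Myb, a factor needed by dividing blood progenitors, was seen in all pools and no cell. Its levels were 9.33, 10.47 and 9.0 in LSP A, B and M and 9.46, 10.33 and 10.50 in USP N, O and Z, and all 12 cells were at the floor. Of the 5 SCE, 4 were at the floor and 1 at 7.63. The other Myb probe set was seen in no cell and no pool. For the first Myb probe set, the mean log2 level of the pools was 7.20-fold above the floor of the cells, a lower bound (limma difference -2.85 ± 0.17, SE, adjusted p = 3.5e-08). Its cells had no spread and its pools an SD of 0.66, so this SE and p are likely too small. In the whole list, 1 probe set was higher in the cells (Fli1, 0.77, with no sample of either group at the detection level) and 2 in the pools (Myb and the second Lyl1 probe set, -1.89, limma, a call lost without any 1 of 13 samples, with an adjusted p up to 0.13 without LSP A). The median difference was -0.29 over 23 tested (0.02 after quantile normalization). Over all probe sets tested, 2.72% were higher in the cells and 3.16% in the pools.

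The classes can be set beside the promoters of their genes. The windows below run from 250 bases before to 50 bases after the gene's start (RefSeq, build GRCm38.p6, 5′ to 3′ on the gene's strand) and show 1 gene of each class: Rpl41, seen in every cell, at chr10:128549119-128549418 on the minus strand; Tie1, seen in some cells, at chr4:118489800-118490099 on the minus strand; and Myb, seen in none, at chr10:21160935-21161234 on the minus strand.
Rpl41: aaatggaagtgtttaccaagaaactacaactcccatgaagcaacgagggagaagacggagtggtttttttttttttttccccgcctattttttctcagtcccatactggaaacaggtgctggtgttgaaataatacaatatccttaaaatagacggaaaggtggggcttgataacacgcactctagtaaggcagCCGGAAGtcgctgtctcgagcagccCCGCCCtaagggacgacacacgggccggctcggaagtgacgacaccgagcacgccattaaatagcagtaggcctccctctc
Tie1: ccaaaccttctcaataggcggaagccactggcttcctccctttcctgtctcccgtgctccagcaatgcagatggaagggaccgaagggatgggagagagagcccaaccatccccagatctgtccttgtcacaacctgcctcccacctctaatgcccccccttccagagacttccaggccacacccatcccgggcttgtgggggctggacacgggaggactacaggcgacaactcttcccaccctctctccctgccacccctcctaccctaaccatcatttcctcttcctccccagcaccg
Myb: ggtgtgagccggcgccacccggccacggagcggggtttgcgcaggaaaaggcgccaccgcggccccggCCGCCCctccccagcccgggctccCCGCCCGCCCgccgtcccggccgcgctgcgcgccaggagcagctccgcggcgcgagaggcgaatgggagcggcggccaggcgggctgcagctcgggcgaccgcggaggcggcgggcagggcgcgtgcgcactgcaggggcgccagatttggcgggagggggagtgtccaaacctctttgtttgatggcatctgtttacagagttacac
Capitals mark matches, on either strand, to 4 short motifs. The TATA box, searched as TATAAA, was in 13.6% of all 32851 windows. The CCAAT box, searched by these letters, was in 37.4% of the windows. The GC box, searched as GGGCGG, was in 35.7% of the windows. A motif of ETS factors, searched as CCGGAAG, was in 8.86% of the windows. The Rpl41 window holds 1 ETS motif and, on the other strand, 1 GC box, the Tie1 window none of the 4, and the Myb window 3 GC boxes on the other strand, of which 2 overlap. The GC content of the windows is 49.3%, 60.3% and 75%. No comparison of the classes was made, since only 74 of the 97 genes seen in all cells have a window.

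The class seen in no cell held 8 probe sets, 6 with a single gene: Otub1, Rasa4, Zbtb45, Med24, Trim30a and Myb. The pool levels of Otub1, a deubiquitinase, were 10.77, 10.73 and 10.04 in LSP A, B and M and 11.95, 11.14 and 11.29 in USP N, O and Z. Of the 12 cells 8 were at the floor and the highest was at 8.5. In the SCE it was at 11.64 and 13.20 in 2 aliquots and at the floor in the other 3. Rasa4, a Ras GTPase activating protein, had 10.68, 10.62 and 9.54 in LSP A, B and M, 11.47, 10.33 and 11.94 in USP N, O and Z, and all 12 cells at the floor.

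The fold of Rasa4 is a lower bound: the mean log2 level of its pools was 13.6-fold above the floor of the cells (limma difference -3.76 ± 0.19, SE, adjusted p = 5.2e-09). Its cells had no spread and its pools an SD of 0.85, so this SE and p are likely too small. The limma difference of Otub1 was -3.80 ± 0.21 (SE, adjusted p = 1.3e-08), likewise against a group with most cells at the floor. Zbtb45, a zinc finger protein, Med24, a Mediator subunit, and Trim30a, an interferon-induced protein, had highest cells at 7.98, 7.59 and 7.72 and lowest pools at 9.15, 9.48 and 9.05. All 8 probe sets of this class were higher in the pools in limma, as their choice makes likely, so the count is a description. None of the 6 genes changed its call under any alternative that tested it.

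The class seen in some cells was led, by pool level, by Lst1, Gdi2, Krtcap2, Cux1, Stx5a, Romo1, Lyl1, S100a13, Cbfb and Eif3k. Lst1, a leukocyte transcript, had 12.80, 12.83 and 13.41 in LSP A, B and M and 12.92, 12.79 and 13.76 in USP N, O and Z, the second highest mean of all pool probe sets with a single gene. It was seen in 8 cells at 11.58 to 15.32, while the other 4 cells were at 7.35 or below. All 5 SCE saw it, at 13.69 to 15.06. Gdi2, a regulator of Rab GTPases, was seen in 8 cells and all SCE, and Stx5a, a syntaxin of the Golgi, in 9 cells and 4 SCE. Eif3k, a translation initiation factor, and S100a13, a calcium-binding protein, were each seen in 10 cells. Romo1, a mitochondrial membrane protein, and Krtcap2, an oligosaccharyltransferase subunit, were each seen in 11.

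Cux1 and Gorasp2 were high in the pools and low in most cells. Cux1, a homeodomain factor, was at 12.01, 12.20 and 12.52 in LSP A, B and M and at 12.36, 12.33 and 12.93 in USP N, O and Z. It was seen in 4 of 12 cells at no more than 11.84, so every cell was below every pool (difference -3.70 ± 0.75, SE, adjusted p = 0.0056, limma). In the SCE it was at 12.09, 13.46 and 12.90 in 3 aliquots and at 7.85 and 7.53 in the others. Gorasp2, a Golgi stacking protein, was at 10.66 to 12.96 in the pools and was seen in 4 cells, but in all 5 SCE at 9.86 to 14.18. Its difference was -3.58 ± 0.68 (SE, adjusted p = 0.0032, limma). Both calls were lost against the LSP pools alone and against the pool arrays with positive values.

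Of the 10 largest differences toward the pools with a single gene, 3 lie in the class seen in no cell (Otub1, Rasa4 and Zbtb45). The other 7 were Cux1, Cnn3, Dynll2, Gorasp2, Tfdp1, Cnot6l and Psme3, with differences of -3.30 to -3.70. Psme3, a proteasome activator, was the 1 of these 7 whose call held under every alternative. It was seen in 2 of 12 cells, at 9.89 and 9.93, and in all pools at 9.79 to 12.31 (difference -3.30 ± 0.54, SE, adjusted p = 0.001, limma). Cnn3, a calponin, was seen in 1 cell and 5 of 6 pools, Cnot6l, a deadenylase, in 2 cells and 5 pools, and Dynll2, a dynein light chain, and Tfdp1, a partner of the E2F factors, in 3 cells and all pools each. The calls of Dynll2 and Tfdp1 were lost without single pools, with adjusted p up to 0.0589 (without LSP B) and 0.0696 (without USP O) in limma. Of the 636 probe sets of the class, 40 were higher in the pools and 0 in the cells in limma, a description too, since the class was chosen on the same values.

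The class seen in all cells held 156 probe sets, 104 of them with a single gene, of 97 genes, and 35.9% of the 156 have suffixed identifiers, against 22.6% of all probe sets. Its 10 highest by pool level were Jund, Uhmk1, Rpl41, Mrpl52, Ubl5, Use1, Cox6a1, Rpl7, Txnl1 and Snhg1. Jund, an AP-1 factor, had the highest pool level of all probe sets with a single gene, at 12.83 to 13.56 in the pools and 11.20 to 13.63 in the cells (difference -0.47 ± 0.30, SE, adjusted p = 0.50, limma). Rpl41, a ribosomal protein, was at 12.67, 12.94 and 13.56 in LSP A, B and M, at 12.76, 12.62 and 13.29 in USP N, O and Z, and at 14.18 to 15.35 in the cells. Its lowest cell lay above its highest pool (difference 1.84 ± 0.18, SE, adjusted p = 7.5e-06, limma), and it was no longer called after quantile normalization.

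Of the 156, 83 were higher in the cells and 0 in the pools, and the median difference was 1.11. The class holds probe sets chosen for high values in every cell, the values the fit uses, so these counts are a description. After quantile normalization 58 were higher in the cells and 3 in the pools, with a median of 0.64, and against the pool arrays with positive values alone 26 and 0, with a median of 0.71. Uhmk1, a kinase, was higher in the cells by 1.68 ± 0.18 (SE, adjusted p = 1.9e-05, limma), but at -0.16 after quantile normalization its direction turned. The differences of Mrpl52, a mitochondrial ribosomal protein (1.49), Ubl5, a ubiquitin-like protein (1.25), and Cox6a1, a cytochrome c oxidase subunit (0.95), turned under that setting too, to -0.18, -0.29 and -0.52, none of which passed the test.

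Most ribosomal protein probe sets of the pools were seen in every cell. The list had 49 probe sets of 35 genes, of which 22 were seen in all pools, and 21 of these in all 12 cells, against 19.5% of all pool probe sets. The exception was Rpl13a, seen in 11 cells. Of the 45 tested, 19 were higher in the cells and 0 in the pools, and the median difference was 0.77, with 18 of 43 higher after quantile normalization and 11 of 45 against the pool arrays with positive values alone. Over all probe sets tested, 2.72% were higher in the cells. Rpl10a was higher in the cells by 1.94 ± 0.19 and 2.43 ± 0.24 in 2 probe sets, Rps10 by 1.77 ± 0.19 and Rps7 by 1.84 ± 0.18 (all SE; adjusted p under 0.05 in limma and under every alternative that tested them). The summed intensity of the 49 probe sets ran from 135590 to 299670 in the cells and from 48483 to 91185 in the pools. Of the 49 probe sets, 19 were seen in no cell and no pool, and ribosomal protein genes have many near-identical pseudogenes, so single members are uncertain.

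Other genes of the energy and protein machinery divided differently. Oxidative phosphorylation subunits had 96 probe sets, with 32 seen in all pools: 12 of these in all cells, 20 in some and 0 in none. Of 87 tested, 11 were higher in the cells and 3 in the pools, where 2.72% and 3.16% of all probe sets tested were called. Without suffixed identifiers 4 of 54 were higher in the cells and 2 in the pools. Against the pool arrays with positive values alone, 6 of 87 were higher in the cells and 2 in the pools. Cox7a2l and Uqcrh, members of respiratory complexes, were higher by 2.05 ± 0.34 and 1.90 ± 0.23, and Cox6c, a cytochrome c oxidase subunit, by 1.74 ± 0.14 (SE; limma, called under every alternative that tested them). Cox6c has a suffixed identifier and was not tested without those. Ndufa5, a complex I subunit in the same list, was seen in 8 of 12 cells with an SD of 3.36 over the cells.

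The proteasome, which degrades marked proteins, showed no probe set seen in all cells. Of its 51 probe sets 10 were seen in all pools, and all 10 were seen in some cells, in a median of 7.5. Of 48 tested, 0 were higher in the cells and 1 in the pools (Psme3, above), against 2.72% and 3.16% of all probe sets tested, so no shift of the list is read from it. The median difference was -0.20 (0.01 against the pool arrays with positive values alone). Psme1, an interferon-induced activator, was seen in 8 cells and all SCE, with an SD of 3.06 over the cells. Translation factors had 10 of 66 probe sets in all pools, 2 of them in all cells, and 3 higher in each direction of 63 tested. Eef1a1, the elongation factor, was seen in every cell, and Eif3b, an initiation factor, in 4.

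Of the widely expressed genes used as references, 9 of 13 probe sets were seen in all pools, 6 of them in all cells and 3 in some. Actb, a cytoplasmic actin, was seen in all cells by one probe set and in 11 by the other. Fth1, the ferritin heavy chain, was higher in the cells by 1.65 ± 0.25 (SE; limma), a call lost against the pool arrays with positive values alone. Ywhaz, a 14-3-3 protein, was seen in 6 of 12 cells and in all pools. Of 12 tested, 4 were higher in the cells and 1 in the pools, against 2.72% and 3.16% of all probe sets tested. The 4 became 2 after quantile normalization and 0 against the pool arrays with positive values alone. The 1 was Hprt, a purine salvage enzyme (-1.72 ± 0.40, SE, adjusted p = 0.016, limma, and 0.057 without USP N).

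Among genes of reactive oxygen metabolism, 5 of 21 probe sets were seen in all pools, 3 of them in all cells (Sod1, Txn1 and Prdx2), and 2 of 19 were higher in the cells. Sod1, the cytoplasmic superoxide dismutase, was at 10.58 to 12.02 in the pools and at 12.59 to 14.18 in the cells, without overlap (difference 2.11 ± 0.28, SE, adjusted p = 0.00016, limma; not called against the pool arrays with positive values alone). Prdx4, a peroxiredoxin, was seen in 6 cells. Of the glycolysis enzymes, 5 of 18 probe sets were seen in all pools: Hk1, a hexokinase, in all cells, and Pgk1, Tpi1 and both of Aldoa in some. Of 16 tested, 0 were higher in the cells and 2 in the pools, among them Pfkp, a phosphofructokinase, seen in 4 pools and at the floor in every cell. Beside both lists, 2.72% of all probe sets tested were higher in the cells and 3.16% in the pools.

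Of 44 cell cycle probe sets, 20 were seen in some pool and 16 in some cell, but 1 in all pools, Ccnd3, a D-type cyclin, which 10 of 12 cells saw. Of 38 tested, 1 was higher in the cells and 4 in the pools, with a median of -0.23 (0.01 after quantile normalization); over all probe sets tested, 2.72% and 3.16% were called. Pcna, the sliding clamp of replication, was seen in 5 of 6 pools (8.29 to 10.30) and no cell, with 9 cells at the floor and the highest at 8.0 (difference -2.48 ± 0.21, SE, adjusted p = 1.6e-06, limma). All 5 SCE were at the floor for Pcna. Pttg1, the securin, was seen in 5 pools and 2 cells. Of the DNA repair genes, 1 of 28 probe sets was seen in all pools (Ddb1, in 5 cells), and 1 of 24 was higher in the cells (Xrcc1) and 3 in the pools. Rad23b, a partner of the Xpc damage sensor, was seen by a probe set in 4 pools and was at the floor in every cell. Its called differences of -3.04 and -2.41 (limma) come from different probe sets of this gene, both with suffixed identifiers. The call at -2.41 was lost against the LSP pools alone.

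Immediate early genes had 1 of 27 probe sets in all pools, Jund. Atf3, a stress-induced factor, was in one of its probe sets seen in all 12 cells and 1 pool and was the 1 probe set of 24 higher in the cells. In the list of genes that the study took up in its single cells, 6 of 26 probe sets were seen in all pools, 2 of them in all cells (Lmo2 and Ctla2b) and 4 in some. That list was drawn from these samples and is no independent evidence. Ctla2b, a cathepsin inhibitor, was at 9.64 to 11.19 in the pools and 9.87 to 12.57 in the cells (difference 1.42 ± 0.33, SE, adjusted p = 0.014, limma), a call lost against the LSP pools alone and against the pool arrays with positive values. Of the list's 24 tested, 2 were higher in the cells and 3 in the pools. Over all probe sets tested, the shares were 2.72% and 3.16%.

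A few probe sets were seen in every cell and in no pool. They numbered 11, of which 8 have suffixed identifiers and 7 have a single gene: Sf1, Sirpa, Tax1bp1, H2bc22, Rpl32, Proc and Ctrl. Sf1, a splicing factor, was at 7.56, 7.95 and 7.97 in LSP A, B and M and at 7.59, 7.0 and 7.79 in USP N, O and Z, against 10.64 to 12.71 in the cells. It was at 10.76 to 11.94 in the SCE. The difference of 3.98 ± 0.28 (SE, adjusted p = 1.9e-07, limma) was the largest toward the cells. Sirpa, an inhibitory receptor of myeloid cells, was at 7.0 to 8.13 in the pools, 9.88 to 11.67 in the cells and 10.06 to 11.02 in the SCE (3.44 ± 0.23, SE, adjusted p = 1.3e-07, limma). Tax1bp1, an autophagy receptor, was at 7.0 to 7.47 in the pools and 9.37 to 11.24 in the cells (3.10 ± 0.24, SE, adjusted p = 5e-07, limma).

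The 11 were chosen on these same values, so their differences and calls are a description. The other members of the 10 largest differences toward the cells were Rbck1, Rpl32, Rpl10a, Pdzk1ip1, Ncam1, Sprr1a and Btbd17. Of these, Pdzk1ip1 and Sprr1a have unsuffixed identifiers. Pdzk1ip1, a membrane protein, was at 7.66 to 10.50 in the pools and 8.36 to 13.08 in the cells (2.41 ± 0.53, SE, adjusted p = 0.01, limma), a call lost against the LSP pools alone and against the pool arrays with positive values. For Ncam1, an adhesion molecule, and Sprr1a, a protein of squamous epithelium, all 6 pools were at the floor. The mean log2 level of the cells was 5.27-fold and 4.96-fold above it, each a lower bound. Of the 8503 probe sets seen in no pool, 1120 were seen in at least 1 cell, 694 of them in exactly 1.

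Markers of other blood and marrow cells were counted in both groups. Of the T cell markers (22 probe sets), 4 were seen in some cell and 0 in any pool, and their summed intensity ran from 2987 to 10362 in the cells and from 2816 to 3228 in the pools. Cd3d, Cd3e, Cd3g and Cd8a were seen in no cell and no pool. Cd2, a T cell adhesion molecule, was the 1 marker of this list higher in the cells (1.07), a call lost without any 1 of 8 samples (adjusted p up to 0.085 without LSP A, limma). Of the B lineage markers (40 probe sets), 1 was seen in some cell and 2 in some pool, with Cd79a and Pax5 in neither group (5172 to 12607 in the cells, 5126 to 6630 in the pools).

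Of the granulocyte and monocyte markers (28 probe sets), 8 were seen in some cell and 10 in some pool, with 4145 to 12461 in the cells and 5245 to 19904 in the pools. Mpo and Elane were seen in neither group. The 2 of them seen in all pools were S100a8, a neutrophil protein (4 cells; 9.56 to 11.78 in the pools), and Lyz2, a lysozyme (8 cells; 9.41 to 10.72). Of this list, 1 was higher in the cells (Csf1r) and 1 in the pools (Cd14, a call lost without any 1 of 3 samples, with an adjusted p up to 0.080 without USP Z in limma). Of 11 erythroid probe sets, 1 was seen in some cell and 2 in some pool, and Klf1 and Alas2 in neither group (1408 to 2827 in the cells, 1441 to 4543 in the pools). Hba-a1, an alpha globin, was seen in 3 cells at no more than 10.39 and in the 3 USP pools at 10.74 to 11.27, but in all 5 SCE at 11.46 to 13.38. Of 9 megakaryocyte probe sets, 2 were seen in some cell and 0 in any pool, with Pf4 in neither group (1152 to 7952 in the cells, 1152 to 1645 in the pools). Of 22 stromal and endothelial probe sets, 0 were seen in any cell and 1 in some pool, with Cdh5 in neither group (2832 to 3332 in the cells, 2816 to 3281 in the pools). Of the 14 tested, Pecam1, an adhesion molecule of endothelium and blood cells, was higher in the cells by 0.68 ± 0.18 (SE, adjusted p = 0.036, limma) with no sample at the detection level, a call lost without any 1 of 10 samples (adjusted p up to 0.098 without LSP A). Beside the calls in these marker lists, 2.72% of all probe sets tested were higher in the cells and 3.16% in the pools. The part of these other blood and marrow cells in the differences above was not tested.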

How the data were processed

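Transcripts of single SP cells and of 10-cell SP samples were amplified by a reverse transcription and polymerase chain reaction of 3′ cDNA ends and hybridised to Affymetrix MG-U74Av2 arrays. The authors deposited 1 table of intensities, on a linear scale and not log2, for 35 arrays. Per the methods the arrays were read with Affymetrix Microarray Suite; the methods then describe log2 RMA levels, which these values are not. Each array has nearly the same mean (242 to 248 without controls, leaving out 2% at each end). Which step gave 9 pool arrays negative values is not given in the sources used here. The members, lists, tests, floor and detection level were chosen with earlier results of these data known.

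From 12488 probe sets 66 controls were left out. Of the other 12422, 10833 have a single gene in the array's annotation (symbols updated through RefSeq), 396 several and 1193 none, and the last 2 kinds are not named. Intensities were logged, set to at least log2 7 and averaged over the 2 arrays of a pool. Levels were compared with limma 3.58.1 in R 4.3.3 (lmFit, eBayes, Benjamini-Hochberg adjustment); the code was tested on simulated data, where unequal spread between the groups raised the share of false calls above the nominal one. Counts of probe sets per sample were compared with an exact permutation test (scipy 1.17.1, numpy 2.4.6). A difference with a group at the floor throughout is a bound, and a difference whose lower group lies at the floor is understated. The number of arrays limits the precision.

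Named genes were those that mark the cells, those of 19 lists, the 10 probe sets with the largest called difference in each direction, the 10 with the highest pool level in each class and the 10 with the highest cell level among those seen in every cell and no pool. Alternatives were other floors, detection levels, filters and scalings, array weights, subsets of pools and arrays, each sample left out, and, added after seeing the data, leaving out suffixed identifiers. The CD8 samples and the SCE entered no test.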

Additional observations from a re-analysis of the deposited data

Results flagged for a closer look

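Among 113 sets of samples (the 6 pools for each probe set followed over the settings, and the numbers of probe sets seen in the pools and in the SCE), 10 had 1 sample far from the others. Chance gives about 1 in 20 for values without a floor, so this rate does not hold here. Where the other pools are tied at the floor, any level above it is flagged, and a set wholly at the floor cannot be flagged. Cnot6l was at 7.12 in USP Z and at 11.34 to 12.04 in the other pools. Gdi2 was at 13.35 in USP Z and at 12.16 to 12.59 in the others. H2bc22 was at 7.79 in LSP B and at 8.52 to 8.90 in the others, and Nfe2 at 11.23 in LSP A and at 11.53 to 11.66 in the others. The remaining 6 lay below the detection level in every pool: Btbd17 at 7.78 in LSP M (others 7.0 to 7.12), Rbck1 at 7.71 in LSP B (others 7.0 to 7.27), and Cd2 at 7.33, Xrcc1 at 7.08, Fli1 at 7.20 and Pecam1 at 7.44 in LSP M with the others at the floor.

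For 2 of the probe sets followed over the settings, the LSP pools differed from the USP pools. The difference LSP minus USP was -1.70 for the Flt3 probe set higher in the pools (log2; limma, adjusted p = 0.0387) and -3.34 for Hprt (limma, adjusted p = 0.0489), which was seen in USP N and USP Z alone.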

How the results depend on the processing

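No paired analysis was possible because the single cells carry no replicate number shared with the pools. The fewer probe sets seen in the cells (-766.5) remained fewer under each alternative run except quantile normalization, which by construction gives arrays the same distribution (0.917, p = 0.48, exact permutation test). With 1 sample left out, the difference ran from -833.07 to -721.07, the probe sets higher in the cells from 201 to 310, those higher in the pools from 280 to 364, the pool probe sets from 800 to 912, those seen in all cells from 156 to 171 (17.2% to 21.4%), in some from 620 to 743 and in none from 8 to 12 (without USP Z). At detection levels of 8 and 10 the difference in probe sets seen was -726.33 and -339.92, and against the 2 pools with positive arrays alone -511.17.

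The probe sets higher in the cells (280) were 686 with a floor of log2 6, 141 with a floor of log2 8, 154 with a filter of log2 9 in 3 samples, 434 with array weights, 146 against the LSP pools alone, 70 against pool arrays with positive values alone and 152 without suffixed identifiers. Those higher in the pools (326) were 205 after quantile normalization and 515 against pool arrays with positive values alone. The 8 probe sets seen in no cell became 1 (quantile normalization), 24 (LSP pools alone), 32 (positive arrays alone), 3 (detection level 10), 1 (10 in pools and 9 in cells) and 5 (9 in pools and 8 in cells). The 636 seen in some cells became 965 (positive arrays alone), 315 (level 10) and 297 (10 and 9), the 800 pool probe sets 411 under both of the last settings, and the 156 seen in all cells 93 (level 10) and 100 (without suffixed identifiers). The median SD of the cells was 1.92 and 1.45 with floors of log2 6 and 8, 1.61 after quantile normalization and 1.70 for positive arrays alone, where that of the pools was 0.67 and 0.39.

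Of 64 called differences of probe sets followed over the settings, 27 were called under every setting that tested them and 37 were lost under at least 1 (29 against the 2 pools with positive arrays alone, 23 against LSP pools alone, 9 after quantile normalization). After quantile normalization the direction turned for Uhmk1 (-0.16), Ubl5 (-0.29), Mrpl52 (-0.18) and Cox6a1 (-0.52), and against positive arrays alone for Eif2s2 (0.16). The cause was not tested. Leaving out suffixed identifiers was chosen after seeing the data.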
